A study of Ovis aries with 9 samples.

Results

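The genes examined here are 10 genes of NF-kappa B and TNF signalling, taken by symbol from a table of 39157 genes measured in cultured ovine granulosa cells (GCs): NFKB1, NFKB2, RELA, RELB, NFKBIA, TNFAIP3, TAB1, TRAF6, BIRC3 and IKBKB. Each symbol had 1 entry in the table, and each of the 10 was tested. GCs line the ovarian follicle, nourish its oocyte and make its oestrogen. They were taken from small follicles of thin-tailed Han ewes, pooled over many ovaries, grown in plates, and kept for 8 h with neither glucose nor serum. They then received glucose at 0 mM (the CON group), 8.4 mM (LOW) or 33.6 mM (HIGH) for 24 h, and RNA was sequenced from 3 libraries per group. The CON cells therefore shared the starvation step with the others and differed in receiving no glucose afterwards. Because the cells came from a pool, the 3 libraries of a group are not stated to be separate animals, and the p-values measure the spread between libraries.

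NF-kappa B is a family of dimeric transcription factors that wait in the cytoplasm, bound by inhibitor proteins of the I kappa B family. When a TNF receptor, an interleukin receptor or a Toll-like receptor is engaged, adaptor proteins and ubiquitin ligases assemble on it and activate the kinase TAK1, which switches on the I kappa B kinase complex; the inhibitor is then phosphorylated and destroyed, and the dimer enters the nucleus. Many of its target genes are cytokines, survival factors and the pathway's own inhibitors, and in the ovary the pathway is best known from ovulation, luteal regression and the choice between survival and atresia of follicles. The steps after the receptor act on proteins, so RNA levels describe the supply of components and the output of target genes, not activation.

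Values are FPKM (fragments per kilobase of transcript, with the number of mapped fragments taken into account), a measure per length that allows genes to be compared, after each library was scaled to a common median. In the deposited count values, an FPKM of 1 corresponded to 48.0 to 71.3 units per kilobase of genomic span. These units are not shown to be read fragments. The library of HIGH replicate 1 stood apart: small RNA genes took 32.0% of its summed FPKM, against 54.0% to 76.3% in the other 8 libraries, and loci assembled by the authors took 44.8%, against 4.48% to 20.9%. Of 14 granulosa markers 10 were in the table. CYP11A1, the enzyme that opens steroid synthesis, ranged from 140.1 to 202.5 FPKM and INHA from 8.49 to 20.2, whereas the FSH receptor FSHR, which defines the cell type in the follicle, did not exceed 0.577 in any library. CYP19A1, FOXL2, AMH and INHBB were not analysed here. The 8 stromal markers were abundant, and their summed FPKM, led by LUM and TAGLN, ran from 4800 to 6873 over the CON libraries, from 5549 to 6049 for LOW and from 4637 to 6075 for HIGH. The 11 leukocyte markers summed to 16.3 to 23.0 FPKM over the 9 libraries, mostly CD68 and CD14, with the pan-leukocyte gene PTPRC between 0.0096 and 0.691. The sum of 5 endothelial markers was at most 1.02, with CDH5 listed at 0 in every library. CYP17A1, the theca cell steroid enzyme, was at most 0.421. In such bulk libraries, fewer cells of a type and less RNA per cell cannot be told apart.

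All 10 genes were transcribed in every library, over an 11.3-fold span of mean levels. NFKB2 was highest, with a mean of 14.8 ± 1.70 FPKM (SD, n = 9), and TNFAIP3 lowest, with 1.31 ± 0.209. Among the 11007 tested genes with a symbol, NFKB2 stood at percentile 74.4 of level and TNFAIP3 at percentile 20.2. Between them the order of mean level was NFKB1, BIRC3, TAB1, IKBKB, RELA, NFKBIA, TRAF6 and RELB. The ranges over the 9 libraries were separate for NFKB2 and NFKB1, and for NFKBIA and TRAF6, and they overlapped for each other pair of neighbours. NFKB1 exceeded BIRC3 in 4 of 9 libraries and RELA exceeded NFKBIA in 5 of 9, so the order within these pairs was not fixed.

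**Figure D1:**
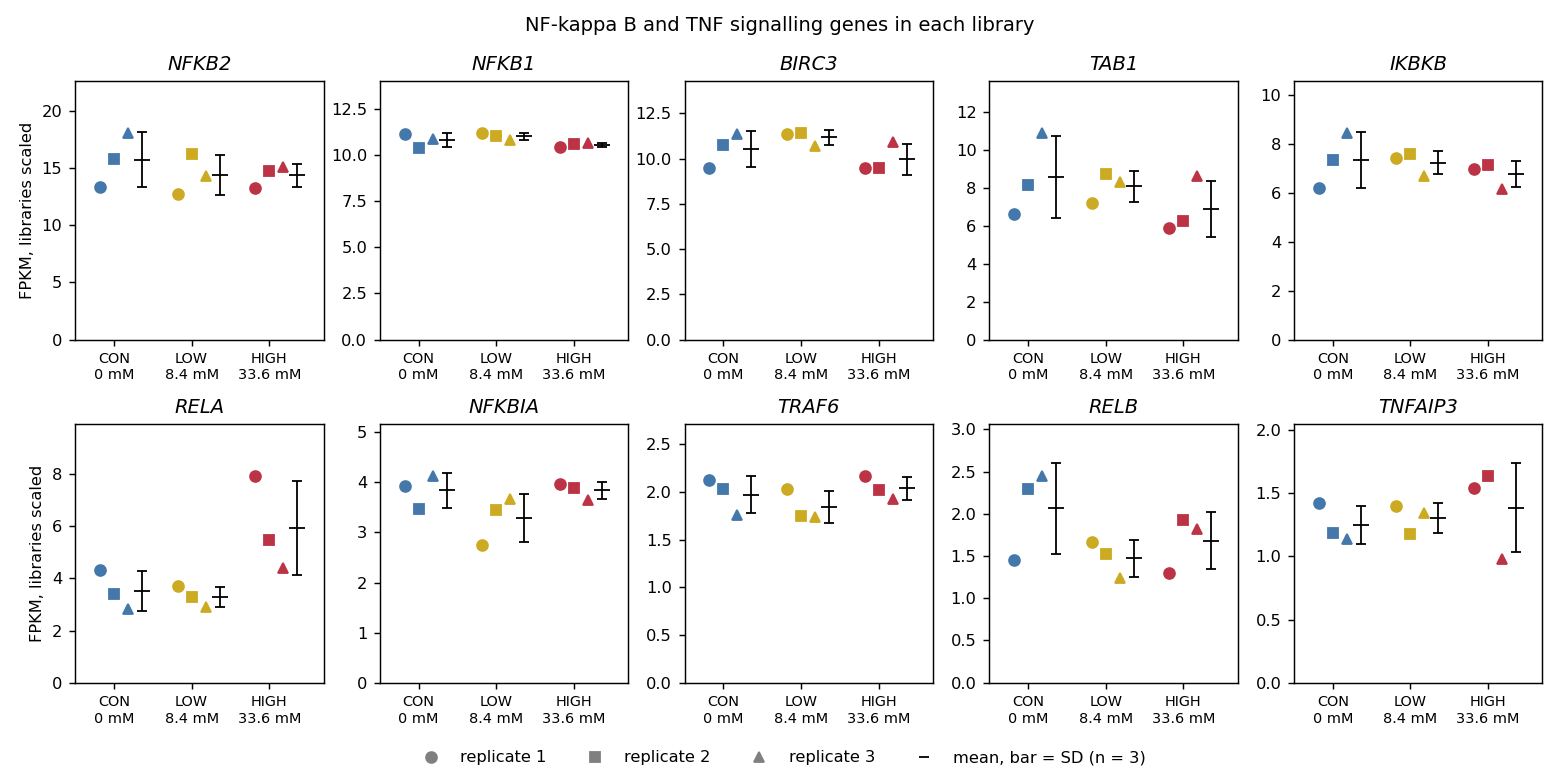
FPKM of the 10 genes (vertical axis, libraries scaled to a common median) in each library of the CON, LOW and HIGH groups; marker shapes give the replicate, and the black dash and bar give the mean and SD of 3 libraries. In the RELA panel the HIGH libraries (4.40 to 7.93) lie above the CON and LOW libraries (2.81 to 4.33), while NFKB1 stays between 10.4 and 11.2 throughout.

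The Rel subunits are the DNA-binding part of the pathway. RELA encodes p65, the subunit with a transactivation domain in the classical dimer. It measured 4.33, 3.41 and 2.81 FPKM in CON replicates 1 to 3, 3.70, 3.28 and 2.91 in LOW, and 7.93, 5.48 and 4.40 in HIGH. The group means were 3.52 ± 0.764, 3.29 ± 0.395 and 5.94 ± 1.81 (SD, n = 3 each). Every HIGH library was above every CON and LOW library, and the CON and LOW libraries overlapped. RELA was 1.65-fold lower in CON than in HIGH, with a log2 fold change of -0.72 ± 0.24 (SE; 95% interval -1.26 to -0.18). It was 1.74-fold lower in LOW than in HIGH, with a log2 fold change of -0.80 ± 0.24 (-1.33 to -0.26). These comparisons share the HIGH libraries. The unadjusted p-values from limma were 0.0144 and 0.00846, and after Benjamini-Hochberg adjustment over 24242 tested genes they were 0.679 and 0.641, so neither difference was called. RELA ranked 451st and 308th of those genes by p. The exact permutation test, two-sided, gave p = 0.1 in both comparisons, the smallest that 3 against 3 libraries can give. Without HIGH replicate 1, the log2 fold changes were -0.49 (unadjusted p = 0.0563) and -0.57 (unadjusted p = 0.0315). With the replicate number as a block in the fit, both unadjusted limma p-values of RELA were smaller, and again neither difference was called. These values are given with the other settings below.

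NFKB1 encodes p105, the precursor of p50, the usual partner of p65. It was the steadiest of the 10 genes, with a coefficient of variation of 2.81% over the 9 libraries. Its level was 11.1, 10.4 and 10.9 FPKM in CON, 11.2, 11.03 and 10.8 in LOW, and 10.4, 10.6 and 10.6 in HIGH. The LOW and HIGH libraries did not overlap, but the fold change was 1.04 and the 95% interval of its log2 value ran from -0.16 to 0.29. In the 3 comparisons the interval allowed at most a 1.22-fold difference either way.

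NFKB2 encodes p100, the precursor of p52 and the substrate of the alternative pathway. It read 13.3, 15.8 and 18.1 FPKM in CON, 12.7, 16.2 and 14.3 in LOW, and 13.2, 14.8 and 15.1 in HIGH. The groups overlapped, and the log2 fold changes were 0.12 for CON versus LOW, 0.12 for CON versus HIGH and -0.0004 for LOW versus HIGH, each with an SE of 0.15. RELB, the partner of p52, measured 1.45, 2.29 and 2.45 FPKM in CON, 1.66, 1.53 and 1.24 in LOW, and 1.30, 1.93 and 1.82 in HIGH. The first CON library fell within the LOW range, and the other two were above it. The log2 fold change for CON versus LOW was 0.43 ± 0.25 (SE; -0.13 to 0.99; adjusted p = 1 from limma), an interval that reaches a 1.99-fold difference. NFKB2 exceeded RELB by 6.90 to 11.6 times within a library.

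The inhibitors NFKBIA and TNFAIP3 are both targets of NF-kappa B as well as brakes on it. NFKBIA encodes I kappa B alpha, which holds the p50 and p65 dimer in the cytoplasm. Its level was 3.93, 3.46 and 4.13 FPKM in CON, 2.75, 3.45 and 3.67 in LOW, and 3.97, 3.89 and 3.66 in HIGH. The mean was 3.29 ± 0.483 in LOW, against 3.84 ± 0.344 in CON and 3.84 ± 0.163 in HIGH (SD, n = 3 each). The log2 fold change was 0.22 ± 0.15 for CON versus LOW and -0.23 ± 0.15 for LOW versus HIGH (SE; limma adjusted p = 1 and 0.682), and the groups overlapped. TNFAIP3 encodes A20, a ubiquitin-editing enzyme that ends signalling from TNF receptors. It was 1.42, 1.19 and 1.14 FPKM in CON, 1.40, 1.17 and 1.34 in LOW, and 1.54, 1.64 and 0.982 in HIGH. The HIGH group held both the highest and the lowest of the 9 values, and no log2 fold change of TNFAIP3 exceeded 0.12 in size.

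RELA and NFKBIA lay close together in the order of levels, and their ratio within a library was also read, since the inhibitor protein binds the p65 dimer. RELA over NFKBIA was 1.10, 0.986 and 0.682 in CON, 1.34, 0.949 and 0.792 in LOW, and 1.997, 1.41 and 1.20 in HIGH. HIGH replicate 3 was below LOW replicate 1, so the HIGH and LOW groups overlapped on this ratio, while HIGH and CON did not. The RELA value alone separated HIGH from both groups.

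Among the adaptors and ubiquitin ligases, TRAF6 carries signals from interleukin and Toll-like receptors, and BIRC3 (cIAP2) adds ubiquitin chains at the TNF receptor. TRAF6 was at 2.13, 2.03 and 1.76 FPKM in CON, 2.03, 1.75 and 1.73 in LOW, and 2.17, 2.01 and 1.93 in HIGH. BIRC3 was at 9.47, 10.7 and 11.4 in CON, 11.4, 11.4 and 10.7 in LOW, and 9.46, 9.48 and 10.9 in HIGH. For both genes the groups overlapped in each comparison. The largest log2 fold change of TRAF6 was -0.14 ± 0.16 and that of BIRC3 0.17 ± 0.12, both for LOW versus HIGH. The BIRC3 entry in the authors' file spans chromosome 15 from 5823447 to 5967347. Its annotated transcript starts at 5861839, and the part before that comes from assembled transcripts. The entry contains BIRC2 and overlaps TMEM123. Whether the counting used strand is not stated, so the level of BIRC3 could include reads of these neighbours. The other members lay on chromosomes 22 (NFKB2), 6 (NFKB1), 21 (RELA, from 43141128 to 43148349), 14 (RELB), 18 (NFKBIA), 8 (TNFAIP3), 15 (TRAF6), 3 (TAB1) and 26 (IKBKB). The build of these coordinates is not given in the sources used here.

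TAB1 binds and activates TAK1, and IKBKB encodes the catalytic I kappa B kinase beta. TAB1 measured 6.63, 8.16 and 10.9 FPKM in CON, 7.19, 8.76 and 8.28 in LOW, and 5.89, 6.24 and 8.60 in HIGH. The CON group alone covered a 1.64-fold range, and the log2 fold change was 0.30 ± 0.21 for CON versus HIGH and 0.24 ± 0.21 for LOW versus HIGH (SE; limma adjusted p = 0.679 and 0.720). IKBKB measured 6.17, 7.34 and 8.44 FPKM in CON, 7.39, 7.58 and 6.69 in LOW, and 6.97, 7.14 and 6.14 in HIGH. Its log2 fold changes lay between 0.01 and 0.11, with an SE of 0.15, and the groups overlapped.

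Across the 3 comparisons, 0 of the 10 genes met the criterion for a call, which was a limma adjusted p under 0.05 together with a log2 fold change above 1 in size. Over all tested genes it was met by 1 gene when CON was set against LOW (0.00413%), by 2 for CON against HIGH (0.00825%) and by 1 for LOW against HIGH (0.00413%). At an unadjusted p under 0.05 the members numbered 0 for CON versus LOW, where 2% of tested genes passed, 1 (RELA) for CON versus HIGH, where 6.76% passed, and 1 (RELA) for LOW versus HIGH, where 7.15% passed. Members whose groups did not overlap numbered 0 between CON and LOW (6.24% of tested genes), 1 (RELA) between CON and HIGH (9.92%) and 2 (RELA and NFKB1) between LOW and HIGH (18%). With 10 members, these counts are near what the shares of all genes give. The median log2 fold change of the 10 genes was 0.07, 0.06 and -0.03 for CON against LOW, CON against HIGH and LOW against HIGH, beside -0.02, -0.08 and -0.05 for all tested genes. The 95% interval stayed within 1.5-fold either way in 21 of the 30 gene comparisons and within 2-fold in 28. The other 2 were those of RELA against HIGH.

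**Figure D2:**
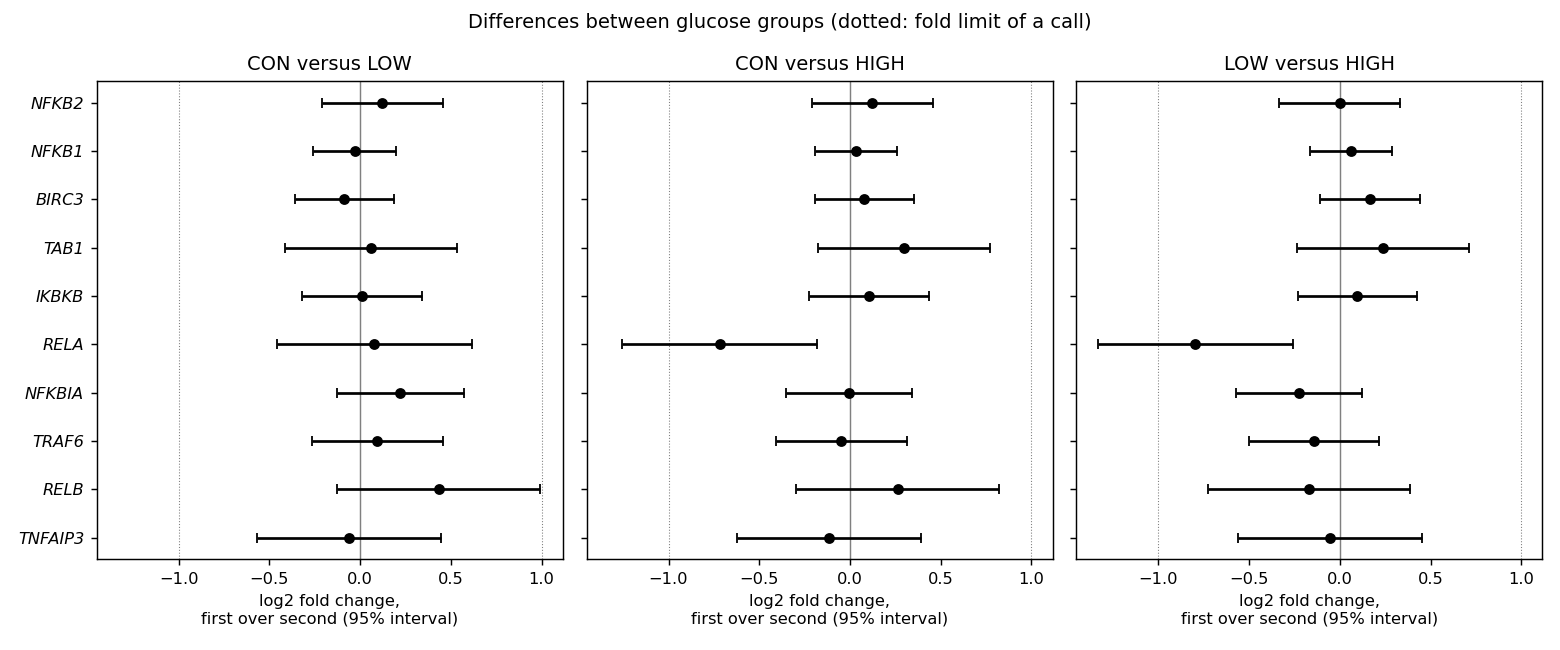
Log2 fold change of the first-named over the second-named group (horizontal axis) with its 95% interval for the 10 genes in the 3 comparisons; dotted lines mark the fold limit of a call. The intervals of RELA for CON against HIGH (-1.26 to -0.18) and for LOW against HIGH (-1.33 to -0.26) exclude 0, and those of the other 9 genes include it.

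Gene values are sums over transcripts, and the number of transcripts differed. NFKB2, TAB1, RELA, TRAF6 and TNFAIP3 had 1 transcript each. NFKB1, IKBKB and BIRC3 were dominated by the annotated transcript, which held 88.7% to 98.5% of the gene in every library. RELB and NFKBIA were more mixed. The annotated RELB-201 was at 1.09, 1.37 and 1.62 FPKM in CON, 1.39, 1.33 and 1.05 in LOW, and 1.30, 1.58 and 1.25 in HIGH. An assembled transcript named RELB-OT1 was at 0, 0.819 and 0.755 in CON and at most 0.271 in LOW, and was 0 in 3 of the 9 libraries. The log2 fold change for CON versus LOW was 0.10 ± 0.22 (SE) for RELB-201, beside 0.43 for the gene, so most of the gene's difference lay in the assembled transcripts.

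NFKBIA had 4 transcripts. The annotated NFKBIA-201 held 53.1% of the gene's level in CON, 53.3% in LOW and 55.4% in HIGH. An assembled form, TCONS_00111875, held 29.3%, 29.0% and 26.4%, and a second, TCONS_00111876, held 14.2%, 13.7% and 12.5%. A transcript labelled as antisense, NFKBIA-AS1, made up the rest, from 0% to 10.2% by library. It was counted under the NFKBIA gene, and without a stated use of strand its reads cannot be told from those of NFKBIA. Of the 19 transcripts of the 10 genes, 0 were called by limma among 39395 tested transcripts, where 0.0127%, 0.0254% and 0.0305% were called in the 3 comparisons in the same order. At an unadjusted p under 0.05, 0, 1 and 1 of the 19 passed, in both cases RELA-201. The share of all tested transcripts that passed at this threshold is not given here.

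**Figure D3:**
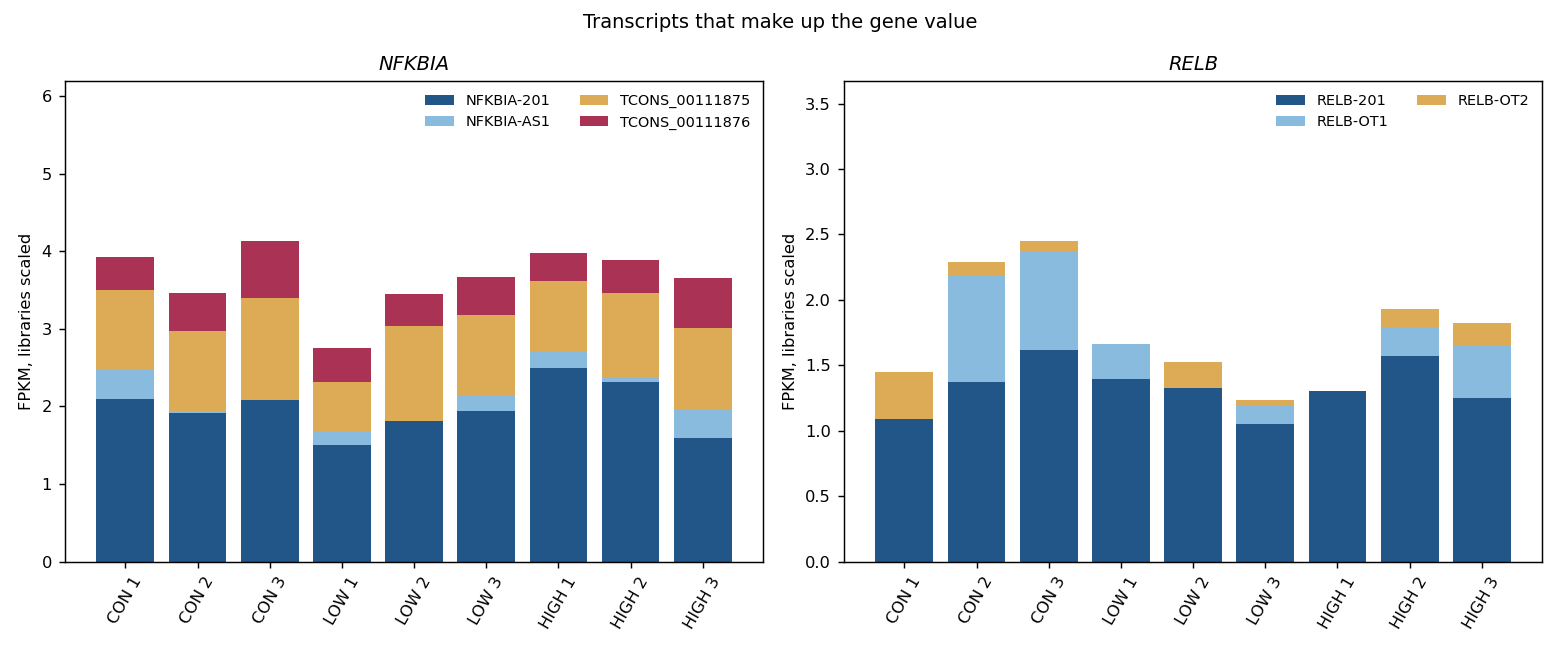
Stacked FPKM of each transcript (vertical axis, libraries scaled) that makes up NFKBIA and RELB in the 9 libraries. NFKBIA-201 is the largest part of NFKBIA in each library, and RELB-OT1 adds 0.819 and 0.755 FPKM in CON replicates 2 and 3 and at most 0.398 elsewhere.

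The levels of several members followed the make-up of the library. With the share of summed FPKM taken by small RNA genes, the log2 level of RELA had Pearson's r of -0.93 over the 9 libraries (Spearman's rho -0.83). The r was -0.95 with group means removed and -0.65 without the 2 libraries farthest from the median share. TRAF6 ran the same way (r -0.75), and BIRC3 (0.84) and TAB1 (0.80) the opposite way. TNFAIP3 (-0.67), NFKB2 (0.48), NFKB1 (0.43), NFKBIA (-0.39), RELB (0.33) and IKBKB (0.21) followed it less. Such relations were common in these libraries: 4 of the 10 members had an r above 0.7 in size, beside 43.1% of 9110 genes with a symbol and a mean FPKM of 1 or more. An r at least as large as that of RELA was found for 3.71% of these genes. The small RNA share was 56.6%, 69.6% and 73.8% in CON, 71.4%, 73.9% and 76.3% in LOW, and 32.0%, 54.0% and 72.3% in HIGH. The part of the library make-up in the RELA difference was not tested.

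**Figure D4:**
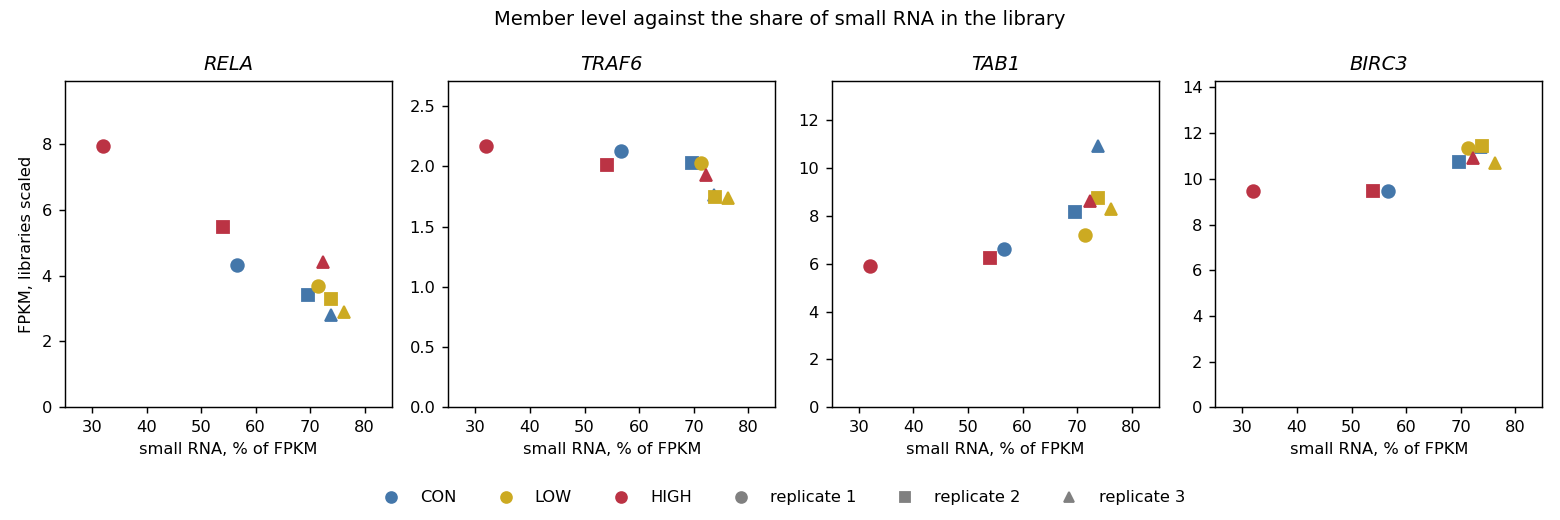
FPKM of RELA, TRAF6, TAB1 and BIRC3 (vertical axis, libraries scaled) against the share of summed FPKM in small RNA genes (horizontal axis, percent); 1 point is 1 library, with colour for the group and shape for the replicate. RELA is highest, at 7.93, in the library with the lowest share (32.0%, HIGH replicate 1), and TAB1 is lowest there, at 5.89.

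The 8 stromal markers were divided, with 4 higher and 4 lower in HIGH than in CON, and the same numbers against LOW. COL1A1, a collagen chain made by fibroblasts, ranged over the CON libraries from 16.1 to 31.7 FPKM, for LOW from 23.7 to 27.7 and for HIGH from 38.5 to 125.7. The 5 genes most like RELA over the 9 libraries were RAD54L2, PRR12, COL1A2, TSPAN9 and ECHDC3 (r 0.99 each). Only COL1A2 of these is a listed stromal marker, which was noticed after the values were seen. TAGLN, an actin-binding protein of smooth muscle and myofibroblasts, ran the other way, with means of 2062 FPKM in CON, 2018 in LOW and 1467 in HIGH, and its groups overlapped. Of the 8 markers, 3 (COL1A1, COL1A2 and PDGFRA) were lower in CON than in HIGH at an unadjusted p under 0.05. In LOW versus HIGH, 3 (COL1A1, COL1A2 and COL3A1) were lower in LOW at that threshold. Of all tested genes, 6.76% and 7.15% passed it in these comparisons. The groups did not overlap for 4 of the 8 (COL1A1, COL1A2, COL3A1 and PDGFRA) in either comparison with HIGH. Of all tested genes, 9.92% did not overlap between CON and HIGH, and 18% between LOW and HIGH. By limma 0 were called, and the summed level overlapped between all groups. Their part in the RELA difference was not tested.

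Between members, 45 pairs were compared over the 9 libraries. Pearson's r exceeded 0.7 in 3 pairs (TAB1 with BIRC3 at 0.82, TAB1 with NFKB2 at 0.81 and RELA with TRAF6 at 0.76). It was below -0.7 in 5 pairs, of which TAB1 with RELA had -0.83 and TAB1 with TRAF6 -0.81. These genes share the libraries and their make-up, and 9 libraries give only a description. By the same measure, the genes most like NFKBIA among 9109 compared were TEF (r 0.93), SPIRE2 (0.91), GNA14 (0.89), MKNK2 (0.88) and FAM131A (0.86).

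In the rest of the pathway, RNA of kinases and of some receptors was present, and RNA of the TNF family ligands listed was scarce. TNF itself was listed at 0 in all 9 libraries, and so was the receptor EDAR. The receptor CD40 did not exceed 0.188 FPKM. The TNF receptor TNFRSF1A, which starts the cascade, was at 34.5 to 49.1 FPKM, and TNFRSF12A, the receptor for TWEAK, at 58.1 to 160.3. LTA, LTB, TNFSF10, TNFSF11 and TNFSF13B had mean levels of at most 0.291. Of 11 tested ligands and receptors, 0 were called by limma in any comparison. At an unadjusted p under 0.05, 0 passed, beside 2%, 6.76% and 7.15% of all tested genes in the 3 comparisons. The median log2 fold change of this list was 0.19, 0.10 and -0.14 in the 3 comparisons. FAS, the death receptor, had the smallest p of this list, with 8.21, 8.28 and 8.13 FPKM in CON and 9.18, 11.6 and 9.46 in HIGH (log2 fold change -0.29 ± 0.13, SE; limma adjusted p = 0.679). It was lower in all 3 CON libraries than in any HIGH library. Between these groups, 9.92% of all tested genes did not overlap. TNFRSF1B, the second TNF receptor, and TNFRSF12A followed, with adjusted p-values of 0.679 and 0.665.

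Of 14 adaptors and ubiquitin enzymes tested, 0 were called by limma. An unadjusted p under 0.05 was found for 1, in LOW versus HIGH, where 7.15% of all tested genes had one. This was TRAF1, an adaptor that is itself an NF-kappa B target, with 2.97, 3.27 and 2.33 FPKM in LOW and 5.62, 4.93 and 3.35 in HIGH (log2 fold change -0.66 ± 0.22, SE; limma adjusted p = 0.641). The LOW and HIGH libraries did not overlap, as for 18% of all tested genes. The list had median log2 fold changes of 0.02, 0.11 and 0.10. TANK and TRADD, the adaptor of TNF receptor 1, followed with an adjusted p of 0.679 each. RIPK1, the kinase recruited by TRADD, was at 29.2 to 35.5 FPKM and BIRC2 (cIAP1) at 15.6 to 19.5, above BIRC3.

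Among 10 further kinases and kinase partners, 0 were called by limma. An unadjusted p under 0.05 was found for 0 of them, beside 2%, 6.76% and 7.15% of all tested genes. MAP3K7, which encodes TAK1, was at 19.7 to 28.0 FPKM, and CHUK, the I kappa B kinase alpha that acts in the alternative pathway, at 17.7 to 23.7, both above IKBKB in every library. CHUK had the smallest p of the list, at 22.9, 23.2 and 23.6 in LOW and 17.7, 19.6 and 21.8 in HIGH (log2 fold change 0.24 ± 0.11, SE; limma adjusted p = 0.665). IKBKG, the regulatory subunit NEMO, followed with 10.23, 12.1 and 11.8 in LOW and 5.80, 8.12 and 10.18 in HIGH (0.53 ± 0.25; limma adjusted p = 0.665). IKBKE came next, with an adjusted p of 0.679. Between LOW and HIGH, 4 of the 10 did not overlap, beside 18% of all tested genes. Of these, CHUK and IKBKG were higher in LOW, and TAB3 and MAP3K3 were lower. The numbers were 1 between CON and LOW (6.24% of all tested genes) and 2 between CON and HIGH (9.92%). The median log2 fold changes of these kinases were -0.04, -0.06 and 0.11. MAP3K14, the kinase NIK of the alternative pathway, was low, at 1.03 to 1.64 FPKM.

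Of 13 inhibitors and brakes tested, a list that also holds the subunit gene REL, 0 were called by limma. In each comparison 1 passed an unadjusted p under 0.05 (BCL3 in both comparisons with CON, TNFAIP8 in LOW versus HIGH). Of all tested genes, 2%, 6.76% and 7.15% passed. BCL3, an atypical I kappa B protein that works with p50 and p52, was at 1.51, 1.83 and 1.52 FPKM in CON, 0.914, 0.976 and 0.893 in LOW, and 1.33, 1.19 and 0.901 in HIGH. The CON libraries lay above the LOW libraries without overlap (log2 fold change 0.74 ± 0.20, SE; unadjusted p = 0.00474; limma adjusted p = 1). Between CON and LOW, 6.24% of all tested genes did not overlap. TNFAIP8 was at 5.53, 5.07 and 5.00 in LOW and 3.21, 3.66 and 4.58 in HIGH (0.45 ± 0.17; adjusted p = 0.665). Whether BCL3 and TNFAIP8 act as brakes in these cells was not tested. NFKBIE, a sister of NFKBIA, had an adjusted p of 0.665 for the same comparison. The list had median log2 fold changes of 0.03, 0.17 and 0.14.

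Of 34 target genes listed 28 were in the table and 22 were tested. By limma 0 were called. At an unadjusted p under 0.05, 1 (BCL2A1), 3 (LIF, CCL2 and GADD45B) and 2 (LIF and BCL2A1) passed in the 3 comparisons. Of all tested genes, 2%, 6.76% and 7.15% passed. Levels of the targets differed widely. IL1B did not exceed 0.0082 FPKM, IL6 stayed between 0.165 and 0.838 and CXCL8 between 0.479 and 2.49, and CCL5 was listed at 0 in all 9 libraries. IER3 was at 45.8 to 109.9, BCL2L1 at 24.6 to 33.8 and JUNB at 17.5 to 22.5. LIF, a cytokine of the interleukin-6 family, was at 14.8, 17.0 and 22.1 in CON and 12.7, 13.5 and 12.2 in HIGH, without overlap (log2 fold change 0.47 ± 0.16, SE; limma adjusted p = 0.679). CCL2, a monocyte chemokine, was at 1.79, 2.47 and 2.09 in CON and 1.45, 0.993 and 1.08 in HIGH, again without overlap (0.80 ± 0.31; adjusted p = 0.679). Between CON and HIGH, 9.92% of all tested genes did not overlap. BCL2A1, a survival gene, was close to the limit of measurement, at 0.139, 0.124 and 0.187 in CON and 0, 0.0228 and 0 in LOW (unadjusted p = 0.00428; limma adjusted p = 1). It met the filter of 0.1 FPKM in 3 libraries only through CON, the group where it was high. Its unadjusted p-values are therefore no support for a difference. The median of the tested targets was 0.03, 0.04 and 0.08, beside -0.02, -0.08 and -0.05 for all tested genes.

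**Figure D5:**
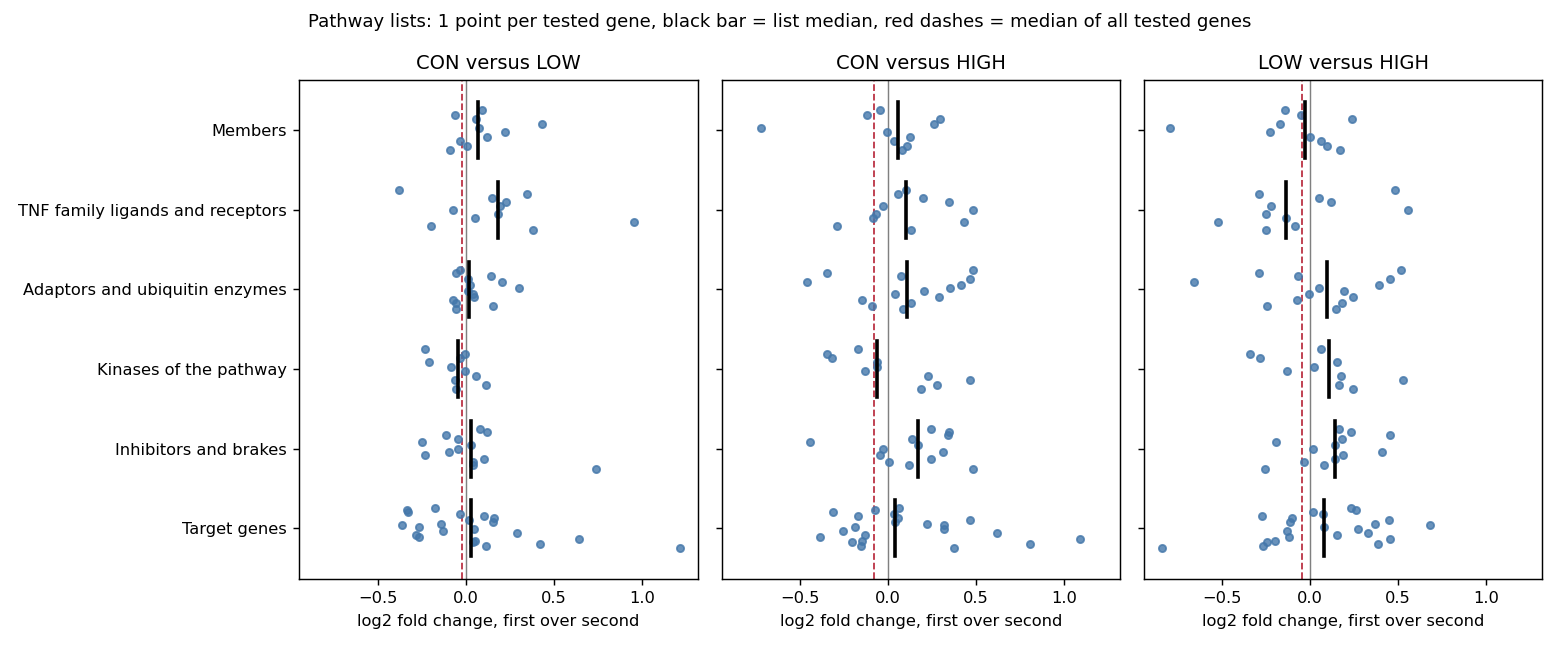
Log2 fold change of the first-named over the second-named group (horizontal axis) for each tested gene of the 10 members and 5 pathway lists; the black bar is the list median and the red dashed line the median of all tested genes, and vertical position within a list has no meaning. List medians lie between -0.14 and 0.19, and 0 of the genes shown were called.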

How the data were processed

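RNA of 9 libraries of ovine GCs (3 each of CON, LOW and HIGH) was measured. The authors depleted ribosomal RNA, sequenced paired ends, aligned the reads with Hisat2, assembled transcripts with Stringtie, counted reads per gene with HTSeq 0.6.0 and deposited FPKM per gene and per transcript. Their notes also list STAR 2.5.1b. The genome build and use of strand are not given in the sources used here. The authors also deposited gene and transcript read count tables. In the transcript table, and in the gene table for genes of 1 transcript, 100% of the values compared lay within 3% of FPKM times genomic span times a library factor, and the gene table summed to 8.25 to 9.38 times the fragments that this factor stands for. These deposited values were therefore treated as a score, not as counts, and served only for the library factors. The authors' test was DESeq2. A count test was not run here, so the planned edgeR and DESeq2 alternatives have no value.

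Ensembl genes without a symbol carried their own library factor, which was divided out. FPKM was then scaled to the library median over 10693 genes with FPKM of 1 or more. Genes entered the test with an FPKM of at least 0.1 in 3 or more libraries. limma 3.58.1 in R 4.3.3, with a trend of the spread on level, was fitted to log2(FPKM + 0.1) of 24242 genes and all 9 libraries. Fold changes are on this scale, which understates changes of low genes. Benjamini-Hochberg adjustment covered all tested genes, and a call needed adjusted p under 0.05 with a log2 fold change above 1 in size. The fit was tested on simulated data with independent libraries. These held neither the differences in library make-up nor a replicate structure, so the fit was not checked under such conditions. Descriptions used Python 3.11.15, numpy 2.4.6, pandas 2.3.3 and scipy 1.17.1.

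The members and lists were chosen with earlier results of these data known. Named genes were the 10 members, the genes called in each pathway list or otherwise the 3 with the smallest unadjusted p, and the 5 genes most correlated with NFKBIA. Others (such as TNF, TNFRSF1A, RIPK1, MAP3K7, IL6 and IER3) were chosen after their values were seen, to give the level of a known step. The alternatives tried were another pseudocount, filter, scaling or set of libraries, the replicate number as a block, and summed entries. Chosen after seeing the data were a minimum span of 300 bases, the annotated transcript alone and scaling on genes with a symbol.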

Additional observations from a re-analysis of the deposited data

How the results depend on the processing

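Under 20 other settings, 0 members were called in any comparison, and the lowest adjusted p of a member was 0.183, for RELA in LOW versus HIGH with the replicate number as a block (replicate block), where CON versus HIGH had 0.247 (unadjusted p = 0.000505 and 0.000963 from limma). The labels do not say what a number shares. Deviations of same-numbered libraries correlated above 0.1 in 6 of 9 pairs (replicates 1 and 3, 0.105 to 0.459) and not in the pairs of replicate 2 (-0.0221 to 0.00925), with a median of 0.128 beside -0.0413 for different numbers. The same-numbered library was the best match in 12 of 18 cases, so the data hint at a shared factor for some numbers. The condition set for pairing, every pair above 0.1, was not met. It could not decide the question, because deviations were taken from the group mean. In each group the small RNA share of replicate 2 lay between those of replicates 1 and 3. For a trend in that order, replicate 2 would keep little deviation, so its pairs could hardly exceed 0.1. Whether libraries of a number are paired was not settled. The block changed no call of a member. All genes called came to 2, 4 and 3 (CON versus LOW, CON versus HIGH, LOW versus HIGH) with no filter. They came to 2 in CON versus LOW with upper quartile scaling, 1 for CON versus HIGH and 5 for LOW versus HIGH with only 2 groups in the fit, and 2 in CON versus LOW and 4 in CON versus HIGH under the block. Leaving out 1 library gave 0 to 4, 0 to 7 and 0 to 3. The highest counts came without CON replicate 3, and the counts of 0 came without LOW replicate 2 or 3, without HIGH replicate 2, and without HIGH replicate 2 or 3, in that order. The cause was not tested. Of 600 log2 fold changes of members, 31 changed sign, and the largest of these had a value of 0.26 in the reported fit.

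With FPKM as deposited, the log2 fold change turned to 0.0673 (NFKB1), 0.0296 (TNFAIP3) and 0.00997 (BIRC3) for CON versus LOW, 0.0230 (NFKBIA) for CON versus HIGH and -0.00809 (NFKB1) for LOW versus HIGH. Upper quartile scaling gave -0.0180 for NFKB1 in CON versus HIGH, and summed entries gave 0.000598 for NFKB2 in LOW versus HIGH. The annotated transcript alone gave -0.00174 for IKBKB in CON versus LOW and -0.0240 for RELB in CON versus HIGH. Scaling on genes with a symbol gave 0.00133 for NFKBIA in CON versus HIGH and 0.0129 for NFKB2 in LOW versus HIGH. Leaving out 1 library turned the sign for RELA (-0.0744 to 0.219), TAB1 (-0.132 to 0.231) and IKBKB (-0.103 to 0.130) in CON versus LOW. It did so for IKBKB (-0.00417 to 0.226), NFKBIA (-0.0596 to 0.0678), TNFAIP3 (-0.328 to 0.0135) and TRAF6 (-0.0989 to 0.0255) in CON versus HIGH, and for NFKB2 (-0.0890 to 0.0828) and TNFAIP3 (-0.269 to 0.0733) in LOW versus HIGH. RELA kept its sign in both comparisons with HIGH, from -0.91 to -0.49 and from -0.99 to -0.57. Of the members other than RELA, the interval that reached furthest was that of RELB for CON versus LOW, up to 1.99-fold. It included 0 on the log2 scale, so neither no difference nor a difference up to that size was excluded. The planned edgeR and DESeq2 fits were not run, because the deposited gene count table was found to hold rescaled FPKM.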
